A study of Mus musculus with 6 samples.

Results

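The 9 genes described here encode chemokine ligands made by natural killer (NK) cells, type 1 innate lymphoid cells (ILC1s) and the myeloid cells around them. They are Ccl1, Ccl3, Ccl4, Ccl5, Ccl9, Xcl1, Cxcl9, Cxcl10 and Cxcl16. They were looked up by symbol among the 55291 rows of the deposited raw counts, and all 9 were found and passed the filter on low counts. The table holds 3 NK and 3 ILC1 libraries. Both cell types were sorted from subcutaneous MC38 tumours, a mouse colon carcinoma line of C57BL/6 origin, 14 days after transplantation into wild-type C57BL/6 mice that carried no other allele or treatment named in the labels. The labels give neither the surface markers of the sort nor the age of the mice. Nothing in them ties a sample to a mouse or a pool, and the p-values below therefore speak only for the spread among these libraries, which may be technical.

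Chemokines are small secreted proteins that direct the movement of leukocytes through receptors coupled to G proteins. CCL3, CCL4 and CCL5 attract T cells, macrophages and NK cells. XCL1 acts on XCR1 of cross-presenting dendritic cells, and CXCL9 and CXCL10 act on CXCR3 of effector T and NK cells. CXCL16 is made as a membrane-anchored ligand of CXCR6, CCL9 acts on CCR1, and CCL1 acts on CCR8. NK cells and T cells are textbook sources of CCL3, CCL4, CCL5 and XCL1. Macrophages and dendritic cells exposed to interferon gamma are textbook sources of CXCL9 and CXCL10.

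The libraries held 16931099 to 20224847 counts, so that 1 count was worth 0.0480 to 0.0580 CPM (the usual depth-scaled count, here with trimmed-mean-of-M-values factors). All 8 ILC1-defining genes examined were higher in every ILC1 library than in every NK library, against 12.5% of all genes tested. Of 8 NK-defining genes, 7 were lower in every ILC1 library, Tbx21 being the exception, against 13.3% of all genes tested. These lists were chosen with earlier results of these data known, so the counts are no independent check of the sort labels. ILC1 replicate 3 stood apart in macrophage RNA. The summed level of 16 macrophage markers was 14610 CPM there, against 418 and 309.6 CPM in ILC1 replicates 1 and 2 and 179 to 334 CPM in the NK libraries, and each of the 16 was at least 4.11 times as high there as in any other library. Of these markers, 3 were at 0 in at least 1 NK library and none was at 0 in an ILC1 library. A second difference concerned matrix RNA: 9 fibroblast and matrix genes other than Fn1 summed to 943 CPM in NK replicate 3, to 1123 CPM in ILC1 replicate 1 and to 1667 CPM in ILC1 replicate 2, but to 7.74, 13.1 and 60.2 CPM in the remaining libraries (NK replicates 1 and 2, ILC1 replicate 3). Fn1, the fibronectin gene of the same list, which macrophages also express, was left out of that sum after its values were seen. It was at 428, 543 and 575 CPM in NK replicate 3 and ILC1 replicates 1 and 2, at 6.47 CPM or less in NK replicates 1 and 2, and at 5896 CPM in ILC1 replicate 3, so that with Fn1 the list sum was highest in ILC1 replicate 3 (5956 CPM). Libraries are called rich in matrix RNA below by the 9 genes without Fn1. In sorted bulk samples, a change in the share of a cell type and a change in RNA per cell cannot be told apart.

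The single comparison of the study asks how ILC1s and NK cells of MC38 tumours differ. By edgeR's quasi-likelihood test, 0 of the 9 chemokine genes were higher in ILC1s and 0 were lower at a Benjamini-Hochberg adjusted p under 0.05, where 0.076% and 0.00691% of the 14475 genes tested were called. At an unadjusted p under 0.05 there were 2 higher (Cxcl9 and Cxcl16) and 1 lower (Ccl5), against a background of 6.95% and 8.82%. DESeq2 called 0 higher (background 3.42%) and 1 lower (Ccl5, background 4.69%), and it gave no adjusted p for Ccl9, Cxcl9 and Cxcl16. Limma-voom called 0 higher (background 0.111%) and 0 lower (background 0.0138%). With a term for sets of libraries of like macrophage and matrix RNA, edgeR called 0 of the 9 in either direction (background 0.111% higher and 0.117% lower). The groups did not overlap in 4 genes with higher and 1 gene with lower ILC1 levels, against 12.5% and 13.3% of all genes. The median log2 fold change (ILC1 minus NK) of the 9 genes was 1.495, and that of all genes tested was 0.081.

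The 9 genes divided into 3 patterns of 3 genes each when they were sorted by their CPM in the 6 libraries, as a description with no test. Ccl9, Cxcl9 and Cxcl16 stood out in ILC1 replicate 3, the library with the macrophage RNA, where each was at least 3 times its next highest library. Of all genes tested, 3.7% met that rule. Ccl1, Ccl5 and Cxcl10 followed cell type by this rule: NK and ILC1 libraries did not overlap, and ILC1 replicate 3 lay within 3-fold of the mean of the other ILC1 libraries, as in 23.4% of all genes. Cxcl10 met it narrowly, with 110.6 CPM in NK replicate 3 and 127 CPM in ILC1 replicate 1. Ccl3, Ccl4 and Xcl1 met neither rule. Of the genes that met the first rule, Cxcl9 came nearest to its threshold, with 7.56 times its next highest level. Of those that did not, Cxcl10 came nearest, with 1.45 times, so neither was close to it.

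**Figure D1:**
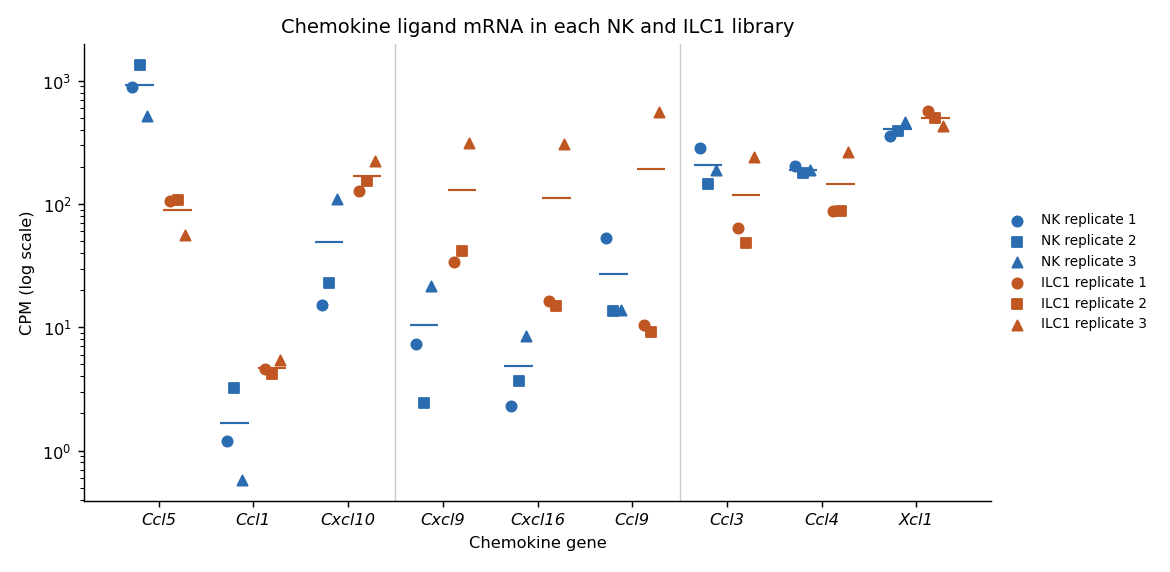
CPM of each chemokine gene (log axis) in the 3 NK libraries (blue) and the 3 ILC1 libraries (orange), with the replicate as the symbol and the group mean as a bar. The vertical lines separate the genes that met the cell-type rule (Cxcl10 narrowly), those that stood out in ILC1 replicate 3 and the other 3. The orange triangles of Ccl9, Cxcl9 and Cxcl16 lie at 557, 313 and 305 CPM.

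To set different genes side by side, CPM was divided by the length of each gene's annotated exons. On this scale Ccl5 had the highest mean in NK cells (958 ± 433 CPM per kb, SD, n = 3), followed by Xcl1 (774 ± 101), Ccl4 (288 ± 18.2) and Ccl3 (269.7 ± 93.9). Cxcl10 (21.98 ± 23.6), Ccl9 (8.83 ± 7.55), Cxcl9 (3.47 ± 3.32), Cxcl16 (1.60 ± 1.09) and Ccl1 (0.705 ± 0.587) followed in that order. In ILC1s Xcl1 came first (959.6 ± 133 CPM per kb), followed by Ccl4 (222 ± 155), Ccl3 (155 ± 141), Ccl5 (93.5 ± 30.1) and Cxcl10 (74.5 ± 21.9). Ccl9 (63.1 ± 104), Cxcl9 (42.9 ± 52.6), Cxcl16 (37.15 ± 55.4) and Ccl1 (1.99 ± 0.266) came last. Most neighbours in these orders were not separated. In NK cells the ranges of only 2 neighbouring pairs did not overlap (Xcl1 above Ccl4, and Ccl3 above Cxcl10), and in ILC1s also only 2 (Xcl1 above Ccl4, and Cxcl16 above Ccl1). With the length of the longest transcript instead, the order of the means was the same in both cell types. Ccl5 then had means of 1376 CPM per kb in NK cells and 134 in ILC1s, and it passed Ccl4 in ILC1 replicates 1 and 2.

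Xcl1 made up 72.9, 70.7 and 39.5% of the summed level per kb of the 9 genes in ILC1 replicates 1 to 3. In NK replicates 1 to 3 its share was 29.6, 28.6 and 43.6%, so the share of ILC1 replicate 3 lay among those of the NK libraries. The share of Ccl5 was 7.33, 8.23 and 2.81% in the ILC1 libraries and 39.9, 53.3 and 26.8% in the NK libraries, with no overlap. Ccl9, Cxcl9 and Cxcl16 took 8.74, 4.95 and 4.83% in ILC1 replicate 3. In every other library each of these 3 took 1.01% or less.

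**Figure D2:**
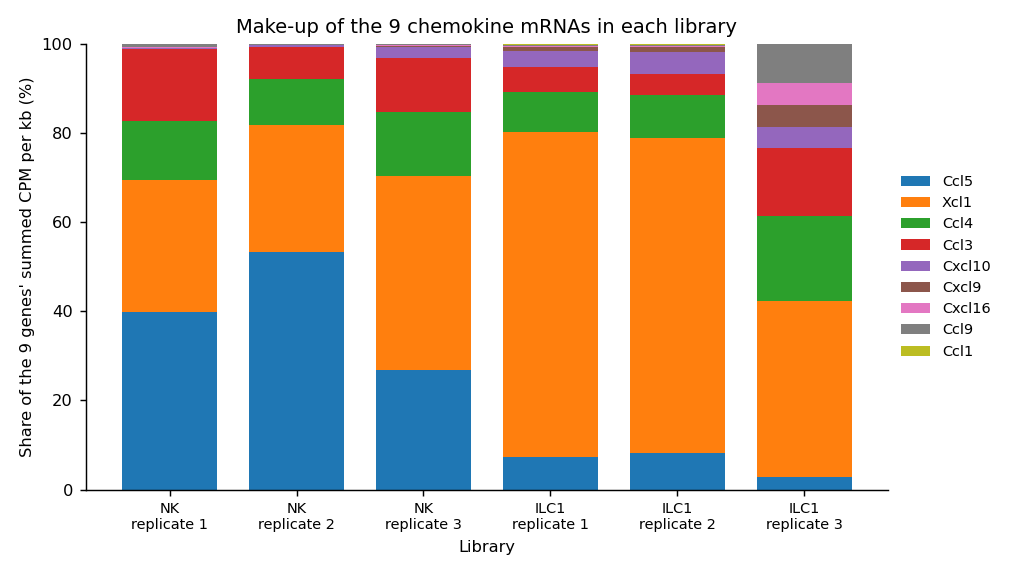
Share of each chemokine gene (%) in the summed CPM per kb of the 9 genes, by library. The blue Ccl5 segment is 26.8% or more in the NK libraries and 8.23% or less in the ILC1 libraries, and the orange Xcl1 segment reaches 72.9 and 70.7% in ILC1 replicates 1 and 2.

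Promoters of 4 genes are shown because they stand for the 3 patterns across the libraries. Ccl9 and Cxcl9 stood out in ILC1 replicate 3. Cxcl10, the neighbour of Cxcl9, met the cell-type rule, and Xcl1, the steadiest gene, met neither rule. Cxcl10 stands for its pattern by the rule only, which it met narrowly. Its level in NK replicate 3 (110.6 CPM) lay near that of ILC1 replicate 1 (127 CPM). The levels of NK replicates 1 and 2 (15.1 and 22.75 CPM) lay far below both. Each promoter is the stretch of 250 bases before the transcription start, 5′ to 3′ on the reverse strand, from RefSeq on GRCm38.p6. The table used held promoters of 6 of the 9 genes, those of Ccl1 and Ccl3 besides these 4. Capitals mark matches on either strand to any of these motifs: GAAANNGAAA (an interferon-stimulated response element), the kappaB consensus, TGANTCA (AP-1), CCAAT and TGTGGT (RUNX).
Xcl1, chr1:164935523-164935772: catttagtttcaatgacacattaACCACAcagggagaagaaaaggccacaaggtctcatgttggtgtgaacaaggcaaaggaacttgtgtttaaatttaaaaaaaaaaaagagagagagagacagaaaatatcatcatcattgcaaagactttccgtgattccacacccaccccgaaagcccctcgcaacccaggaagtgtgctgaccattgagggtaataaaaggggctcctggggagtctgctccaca
Ccl9, chr11:83578637-83578886: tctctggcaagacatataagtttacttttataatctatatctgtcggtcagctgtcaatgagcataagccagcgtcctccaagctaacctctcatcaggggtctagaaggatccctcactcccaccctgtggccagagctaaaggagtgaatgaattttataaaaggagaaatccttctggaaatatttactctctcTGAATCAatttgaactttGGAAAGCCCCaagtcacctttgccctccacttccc
Cxcl9, chr5:92328080-92328329: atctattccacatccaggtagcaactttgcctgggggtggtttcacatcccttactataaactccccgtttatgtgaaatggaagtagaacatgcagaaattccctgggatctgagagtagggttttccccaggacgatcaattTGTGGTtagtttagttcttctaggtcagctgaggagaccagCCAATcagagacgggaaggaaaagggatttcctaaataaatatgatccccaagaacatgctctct
Cxcl10, chr5:92348890-92349139: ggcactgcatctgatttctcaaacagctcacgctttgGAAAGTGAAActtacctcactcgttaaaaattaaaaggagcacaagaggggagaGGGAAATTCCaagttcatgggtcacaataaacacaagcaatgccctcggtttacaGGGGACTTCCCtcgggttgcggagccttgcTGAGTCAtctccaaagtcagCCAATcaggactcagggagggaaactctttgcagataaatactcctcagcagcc
The Cxcl10 window held GAAANNGAAA as GAAAGTGAAA, 213 to 204 bases before the start. It also held a kappaB match, GGGAAATTCC, from 159 to 150, and the overlapping matches GGGGACTTCC and GGGACTTCCC from 104 to 94. TGAGTCA and CCAAT lay closer to its start. The Cxcl9 window shared CCAAT with it, from 65 to 61 bases before the start, and also held TGTGGT. The Ccl9 window held TGAATCA and a kappaB match on the opposite strand, and that of Xcl1 held TGTGGT on the opposite strand. Of all 32851 promoters of this length, 2.98% held GAAANNGAAA, 7.25% the kappaB consensus, 6.75% TGANTCA, 33.8% CCAAT and 14% TGTGGT. A match is a description of these letters only.

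Ccl5, Ccl3 and Ccl4 lie with Ccl9 on chromosome 11 of GRCm38, within 83525778 to 83664683. Ccl5, which encodes RANTES, was at 886, 1351 and 521 CPM in NK replicates 1 to 3 and at 105, 107 and 56.4 CPM in ILC1 replicates 1 to 3. The lowest NK library was far above the highest ILC1 library, and ILC1 replicate 3 was the lowest of all. The mean was 10.25-fold higher in NK cells, with a log2 fold change of -3.36 ± 0.45 (SE; 95% interval -4.46 to -2.25). Its edgeR adjusted p of 0.0959 missed the threshold. Ccl5 passed without NK replicate 3 (-3.63 ± 0.37, edgeR adjusted p = 0.0313, where 1.33% of all genes were called lower), without the low-count filter (edgeR adjusted p = 0.0221, where 0.179% of all genes were called higher and 0.348% lower) and by DESeq2 (adjusted p = 3.4e-14). Over its 14 alternatives the adjusted p ran from 3.4e-14 to 0.388, and the sign was the same in all 14. Against NK replicate 3 alone, the mean of ILC1 replicates 1 and 2, the libraries with like matrix RNA, was 4.90-fold lower.

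Ccl3 and Ccl4 encode the macrophage inflammatory proteins MIP-1 alpha and beta, and their genes are neighbours, 13229 bases apart. Ccl3 was at 285.5, 145 and 189.6 CPM in NK replicates 1 to 3 and at 64.6, 48.2 and 243 CPM in ILC1 replicates 1 to 3. Ccl4 was at 202, 178 and 190.4 CPM in the NK libraries and at 87.8, 87.3 and 265 CPM in the ILC1 libraries. For both genes ILC1 replicates 1 and 2 lay below every NK library and ILC1 replicate 3 lay inside or above the NK range. With all libraries the log2 fold changes were -0.80 ± 0.67 for Ccl3 and -0.38 ± 0.47 for Ccl4 (edgeR adjusted p = 0.607 and 0.724). Without ILC1 replicate 3 they were -1.88 ± 0.33 (edgeR adjusted p = 0.122) and -1.13 ± 0.12 (edgeR adjusted p = 0.0577), short of the threshold, in a fit where 0.0729% of all genes were called higher and 0.0729% lower. The part of that library's macrophage RNA in the levels of Ccl3 and Ccl4 was not tested. The ratio of Ccl3 to Ccl4 per kb within a library, which no scaling between libraries touches, was 0.699 to 1.22 in NK cells and 0.476 to 0.792 in ILC1s, and the groups overlapped.

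Ccr3, a CCL5 receptor gene found on eosinophils, was at 0.462 to 1.25 CPM in NK cells and 0.167 to 0.292 CPM in ILC1s and did not pass the filter on low counts.

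Xcl1 encodes lymphotactin and lies on chromosome 1 (164931644 to 164935527). It varied least of the 9 genes, with 358, 394.5 and 462 CPM in NK replicates 1 to 3 and 571.5, 502 and 432 CPM in ILC1 replicates 1 to 3, a 1.60-fold span between the highest and the lowest library. The groups overlapped through ILC1 replicate 3, which lay between NK replicates 2 and 3. The log2 fold change was 0.31 ± 0.17 (edgeR adjusted p = 0.427), with a 95% interval of -0.11 to 0.72. The ratio of Xcl1 to Ccl5 per kb within a library was 0.741, 0.536 and 1.63 in NK replicates 1 to 3 and 9.95, 8.58 and 14.1 in ILC1 replicates 1 to 3. Every ILC1 library thus held several times more Xcl1 than Ccl5 mRNA per kb, while the ratio lay on both sides of 1 in NK cells. An exact permutation test of 3 against 3 libraries cannot give a two-sided p below 0.1. Its receptor gene Xcr1, a marker of cross-presenting dendritic cells, was at 0, 0 and 0.288 CPM in the NK libraries and at 2.45, 2.44 and 5.85 CPM in the ILC1 libraries (edgeR adjusted p = 0.220, DESeq2 adjusted p = 0.00933). Clec9a, another marker of those dendritic cells, was at 0, 0 and 0.288 CPM in the NK libraries and at 0.390, 0.390 and 2.03 CPM in the ILC1 libraries. Like Xcr1 it was higher in every ILC1 library and highest in ILC1 replicate 3, but it did not pass the filter on low counts. It had 6 counts in NK replicate 3 against 7 and 8 in ILC1 replicates 1 and 2, too few to separate them. Of the 10 dendritic cell genes tested, 7 had a positive log2 fold change, as did 8110 of the 14475 genes tested. Itgax, Zbtb46 and Ccr7 had negative ones (-0.56, -0.10 and -0.95), and Itgax was at 391 to 841 CPM over all libraries. The part of dendritic cell RNA in the Xcr1 level was not tested.

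Cxcl9 and Cxcl10, the CXCR3 ligands induced by interferon gamma, lie on chromosome 5 (92321347 to 92328079 and 92346638 to 92348889), 18559 bases apart. Cxcl10 was at 15.1, 22.75 and 110.6 CPM in NK replicates 1 to 3 and at 127, 153 and 223 CPM in ILC1 replicates 1 to 3. NK replicate 3 was close to the ILC1 libraries and far from the other NK libraries. With all libraries its log2 fold change was 1.76 ± 0.80 (edgeR adjusted p = 0.357). Without NK replicate 3 it was 3.15 ± 0.35 and passed (edgeR adjusted p = 0.0342, where 1.67% of all genes were called higher). Within the libraries rich in matrix RNA, the mean of ILC1 replicates 1 and 2 was 1.27-fold that of NK replicate 3. With library sets as covariate the log2 fold change of Cxcl10 was 0.34, and NK replicate 3 was the only NK library behind it. The part of matrix-cell RNA in the Cxcl10 level was not tested.

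Cxcl9 was at 7.34, 2.41 and 21.7 CPM in NK replicates 1 to 3 and at 34.1, 41.4 and 313 CPM in ILC1 replicates 1 to 3. The groups did not overlap, and ILC1 replicate 3 was 8.29 times the mean of the other ILC1 libraries. The log2 fold change was 3.62 ± 1.26 with all libraries and 1.81 ± 0.93 without ILC1 replicate 3 (edgeR adjusted p = 0.280 and 0.446). With library sets as covariate it was 0.80, and NK replicate 3 was the only NK library behind it. That estimate is the same contrast as the mean of ILC1 replicates 1 and 2 over NK replicate 3, which was 1.74-fold. The ratio of Cxcl10 to Cxcl9 per kb was 0.954 in ILC1 replicate 3, 5.00 and 4.97 in the other ILC1 libraries and 2.76 to 12.6 in the NK libraries, so that the pair was level only in ILC1 replicate 3. Cxcr3, their receptor gene, was at 86.05, 116 and 65.6 CPM in NK cells and 45.3, 39.7 and 30.8 CPM in ILC1s (log2 fold change -1.21 ± 0.26, edgeR adjusted p = 0.144, DESeq2 adjusted p = 0.00182), without overlap.

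Cxcl16 lies on chromosome 11 (70453983 to 70459984) and encodes the ligand of CXCR6, a receptor that marks tissue-resident lymphocytes. It was at 2.30, 3.65 and 8.55 CPM in NK replicates 1 to 3 and at 16.4, 14.9 and 305 CPM in ILC1 replicates 1 to 3. All ILC1 libraries were above all NK libraries, and ILC1 replicate 3 was 19.5 times the mean of the other ILC1 libraries. Its log2 fold change was 4.53 ± 1.49 (edgeR adjusted p = 0.268), and without ILC1 replicate 3 it was 1.67 ± 0.60 (edgeR adjusted p = 0.315). With library sets as covariate it was 0.87, and NK replicate 3 was the only NK library behind it. That estimate is the same contrast as the mean of ILC1 replicates 1 and 2 over NK replicate 3, which was 1.83-fold. Cxcr6 itself was higher in ILC1s and passed, at 63.0, 62.3 and 92.0 CPM against 5.84, 3.54 and 7.25 CPM (log2 fold change 3.705 ± 0.34, edgeR adjusted p = 0.0447). DESeq2 and limma-voom also called it (adjusted p = 5.8e-23 and 0.0433). By edgeR no gene was called higher without NK replicate 1 or 2 or without ILC1 replicate 1 or 2, so Cxcr6 did not pass there. Cxcr6 was 1.47 times as high in ILC1 replicate 3 as in the other ILC1 libraries. Adam10 and Adam17, the proteases known to shed CXCL16, were at 108 to 194 and 63.5 to 127 CPM, with the highest level of each in ILC1 replicate 3.

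Ccl9 encodes a myeloid chemokine and lies 9246 bases from its close relative Ccl6. It was at 53.4, 13.5 and 13.7 CPM in NK replicates 1 to 3 and at 10.4, 9.16 and 557 CPM in ILC1 replicates 1 to 3. ILC1 replicates 1 and 2 were below every NK library, and ILC1 replicate 3 was 56.9 times their mean. On the same ratio the 16 macrophage markers ran from 7.39 (Mertk) to 98.3 times (Fcgr1), with a median of 29.3. The log2 fold change was 2.84 ± 1.76 with all libraries and -1.46 ± 0.73 without ILC1 replicate 3 (edgeR adjusted p = 0.479 and 0.432), a reversal of sign. NK replicate 1 was the highest NK library for Ccl9 and for Ccl6 (87.0, 13.0 and 23.25 CPM), and for 3 of the 16 macrophage markers, Csf1r, Cd68 and Itgam. Of the 16, 11 were instead higher in NK replicate 3 than in both other NK libraries, among them Lyz2 (29.8, 32.8 and 92.6 CPM in NK replicates 1 to 3). Its receptor gene Ccr1 was at 16.9, 3.85 and 8.17 CPM in the NK libraries and 9.46, 7.75 and 339.5 CPM in the ILC1 libraries, the order of Ccl9 within the NK group and the same single high ILC1 library (log2 fold change 3.62 ± 1.68, edgeR adjusted p = 0.364).

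Ccl1, a ligand made by activated T cells, had the lowest mean of the 9 genes in both cell types, with 24, 63 and 12 counts in the NK libraries and 83, 85 and 93 counts in the ILC1 libraries. These equal 1.199, 3.235 and 0.5765 CPM against 4.62, 4.14 and 5.39 CPM. In NK replicate 2 it was above Cxcl9. The groups did not overlap, and the ILC1 libraries lay closer together than the NK libraries. For Ccl1 the log2 fold change was 1.495 ± 0.69 (95% interval -0.18 to 3.17, edgeR adjusted p = 0.357). It was 2.41 ± 0.55 without NK replicate 2 (edgeR adjusted p = 0.449). With library sets as covariate it was 2.91, with only NK replicate 3, at 12 counts, on the NK side. Its receptor gene Ccr8 was at 0.549, 1.08 and 1.15 CPM in NK cells and 15.1, 11.55 and 17.4 CPM in ILC1s (log2 fold change 3.98 ± 0.42, edgeR adjusted p = 0.0600, DESeq2 adjusted p = 4.2e-15). Ligand and receptor were thus both low in NK cells and higher in each ILC1 library, without passing edgeR's test.

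**Figure D3:**
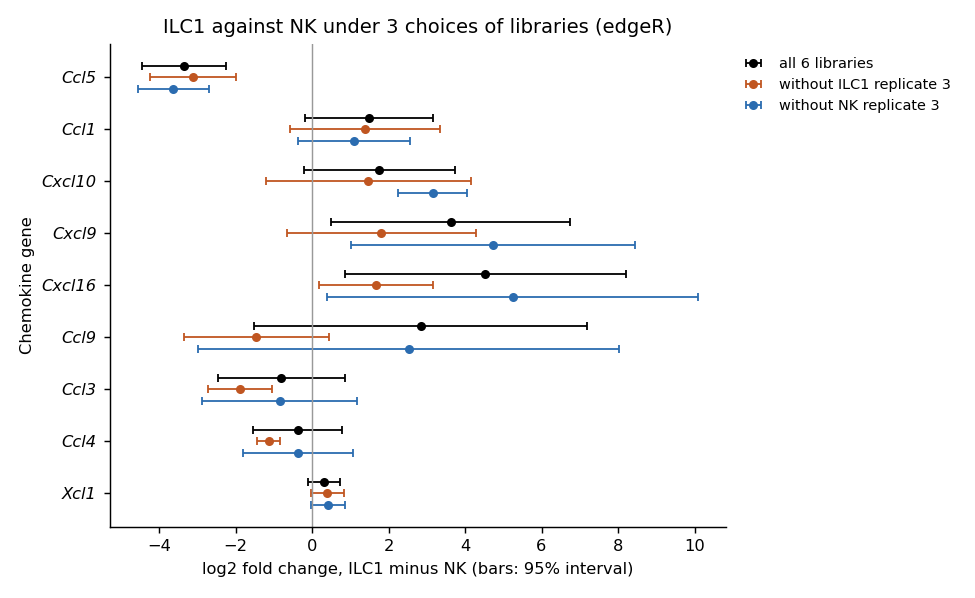
Log2 fold change of each chemokine gene, ILC1 minus NK, from edgeR with all 6 libraries (black), without ILC1 replicate 3 (orange) and without NK replicate 3 (blue), with 95% intervals. Leaving out ILC1 replicate 3 moved Ccl9 from 2.84 to -1.46 and Cxcl16 from 4.53 to 1.67, while Ccl5 lay between -3.63 and -3.12.

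The macrophage markers gave the scale for the genes that stood out in ILC1 replicate 3. The 16 markers were 4.11 to 89.2 times their next highest library there, and the medians of the ratio to the other ILC1 libraries were 29.3 for the markers and 0.931 for all genes tested. Ccl9, Cxcl16 and Cxcl9, with 10.4, 18.7 and 7.56 times the next highest library, lay inside the range of the markers. These 3 genes were picked by this same ratio, and the markers were listed with earlier results known, so this is a description only. The other 6 chemokine genes lay between 0.0417 (Ccl5) and 1.45 times (Cxcl10). The class II genes H2-Aa, H2-Ab1 and Cd74, shared by dendritic cells and macrophages, were 20.4 to 23.3 times their next highest library. Of the 10 dendritic cell genes tested, 5 stood out, these 3 with Batf3 and Irf4, against 3.7% of all genes tested. Itgax, Zbtb46 and Ccr7 were instead 0.681, 0.583 and 0.472 times their next highest library. The neutrophil markers S100a8 and S100a9 were at 4.23 and 2.96 CPM in that library, below their levels in ILC1 replicates 1 and 2. Csf3r, another of the 8 neutrophil markers, was at 44.9 CPM there, 4.645 times its next highest library. The 8 markers summed to 62.0 CPM there and to 34.1 and 31.3 CPM in ILC1 replicates 1 and 2. In the NK libraries they summed to between 33.9 and 463 CPM. The sums of NK replicates 1 and 2 came mostly from a single other marker of the list. In both of these libraries S100a8, S100a9 and Csf3r were at 2.16 CPM or less. The 9 T-cell markers summed to 312 CPM in ILC1 replicate 3 and to 159.7 to 213 CPM in the other libraries, with Cd8a and Cd8b1 standing out. The part of macrophage or dendritic cell RNA in Ccl9, Cxcl9 and Cxcl16 was not tested.

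**Figure D4:**
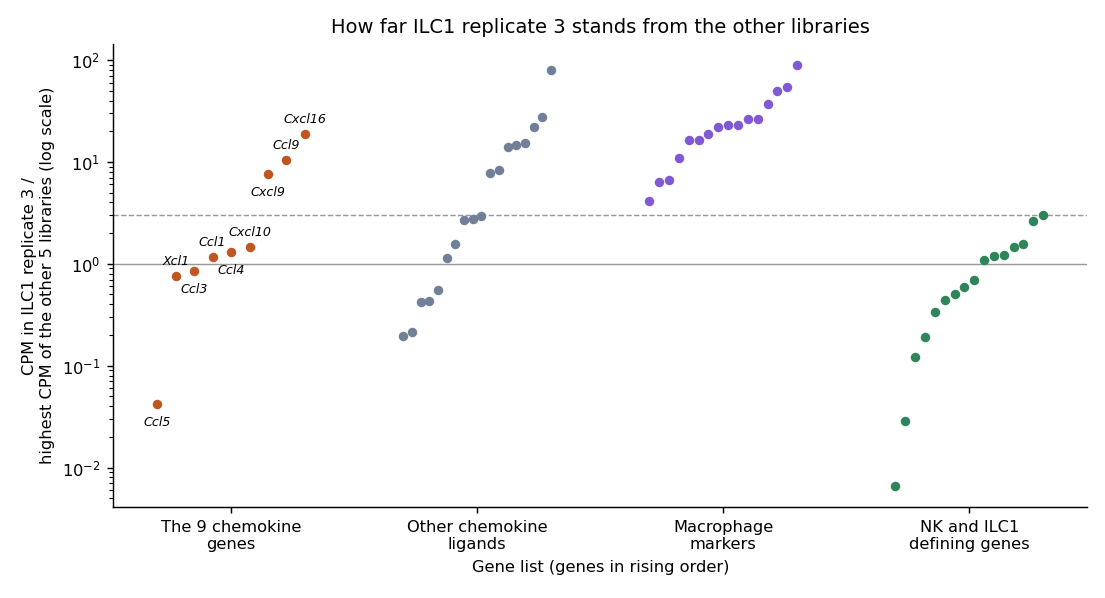
CPM in ILC1 replicate 3 divided by the highest CPM of the other 5 libraries (log axis) for the 9 chemokine genes, the other chemokine ligand genes tested, 16 macrophage markers and 16 NK- or ILC1-defining genes, each list in rising order. The solid line marks 1 and the dashed line 3. All 16 macrophage markers lie at 4.11 or above, with Cxcl9, Ccl9 and Cxcl16 among their values.

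Of the wider family, 41 chemokine ligand genes were listed, of which 40 had a row, 27 were tested and 5 had 0 counts in every library. By edgeR's adjusted p, 0 were higher and 0 lower (background 0.076% and 0.00691%). At an unadjusted p under 0.05, 3 were higher and 1 lower (background 6.95% and 8.82%). DESeq2 called 0 higher and 1 lower (background 3.42% and 4.69%). Without NK replicate 3, 2 were higher (Cxcl10 and Cxcl1, background 1.67%) and 1 was lower (Ccl5, background 1.33%). The median log2 fold change was 2.49 over the 27 genes, and 11 of the 27 stood out in ILC1 replicate 3, against 3.7% of all genes. The 7 receptor genes of the 9 ligands included 1 that was higher by edgeR's adjusted p, Cxcr6 (background 0.076%), and DESeq2 called 3 higher (Cxcr6, Ccr8 and Xcr1, background 3.42%) and 1 lower (Cxcr3, background 4.69%).

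Interferon gamma induces CXCL9 and CXCL10, and a list of 14 genes of its axis was examined. By edgeR's adjusted p 0 were higher and 0 lower (background 0.076% and 0.00691%). Unadjusted, 3 were higher and 4 lower (background 6.95% and 8.82%), DESeq2 called 2 higher and 4 lower (background 3.42% and 4.69%), and the median log2 fold change was -0.30. Ifng itself was at 123, 120.5 and 167 CPM in the NK libraries and at 104, 97.7 and 34.0 CPM in the ILC1 libraries, without overlap, so the library with the most Cxcl9 and Cxcl10 had the least Ifng. The receptor gene Ifngr1 was at 1039 to 1599 CPM in NK cells and 698 to 778 CPM in ILC1s, and Jak1, its kinase, at 1025 to 1479 and 524 to 643 CPM. Irf8, an interferon-regulated transcription factor gene, was at 862 to 1401 CPM in NK cells and 888.5 to 986 CPM in ILC1s. The guanylate-binding protein gene Gbp2 was at 73.2 to 171 CPM in NK cells and 191 to 361 CPM in ILC1s, while its relative Gbp4 was at 218 to 250 and 156 to 187 CPM. Ciita, the class II transactivator gene, and Ifngr2 stood out in ILC1 replicate 3, at 62.2 and 65.55 CPM, as Cxcl9 did.

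A list of 13 NF-kappaB and activation genes held 0 that were higher or lower by edgeR's adjusted p (background 0.076% and 0.00691%). Unadjusted, 1 was higher and 2 were lower (background 6.95% and 8.82%). DESeq2 called 0 higher and 1 lower (background 3.42% and 4.69%), and the median log2 fold change was -0.0015. The members with the highest means over all libraries were Tnfaip3, a feedback inhibitor, at 1509 to 1943 CPM over all libraries, Junb, an AP-1 subunit, at 1357 to 2009 CPM, and Fos, another AP-1 subunit, at 498 to 1202 CPM. Fos was lower in ILC1 replicates 1 and 2 (581 and 498 CPM) than in every NK library and highest in ILC1 replicate 3, as Ccl4 was. Of 11 atypical receptor and processing genes, 8 were tested and 0 were higher or lower by edgeR's adjusted p. Unadjusted, 1 was higher (background 6.95%), and DESeq2 called 1 higher (background 3.42%). Furin, a proprotein convertase, had the highest mean over all libraries, with 136 to 145 CPM in NK cells and 302, 254 and 693 CPM in ILC1 replicates 1 to 3. Tpst2, a tyrosylprotein sulfotransferase that modifies chemokine receptors, was at 118 to 203 CPM in NK cells and 111 to 144 CPM in ILC1s.

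Genes with the most similar course over the 6 libraries were sought among 10089 others by the Pearson correlation of log2 CPM, as a description, since the points share 2 cell types and the same macrophage- and matrix-rich libraries. For Ccl5 these were Myo3b, Ret and Pced1a (r = 0.998, 0.997 and 0.997), for Ccl3 Man1c1, Glul and Ifi209 (0.985, 0.982 and 0.981), and for Ccl4 Prdm1, Ate1 and Snx30 (0.988, 0.987 and 0.986). Prdm1, which encodes Blimp-1, was at 48.7, 35.1 and 34.35 CPM in the NK libraries and at 12.9, 10.2 and 61.3 CPM in the ILC1 libraries. For Xcl1 they were Aebp2, Map2k6 and Slc7a5 (0.992, 0.991 and 0.983), of which the amino acid transporter gene Slc7a5 was at 75.6 to 114 CPM in NK cells and 162, 150.4 and 103 CPM in ILC1s. Cxcl9 was nearest to Dram1, Pltp and Slc25a13, Cxcl10 to Marcks, Nt5dc2 and Sowahc, Cxcl16 to Gys1, Wdfy4 and Dusp16, and Ccl9 to Milr1 and Snx3, all with r of 0.991 or more. Ccl1 was below the level required for this search. Correlations above 0.95 were common: 346 genes had one with Ccl5, 250 with Cxcl9 and 22 with Ccl4.

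Sequence shared with other genes was counted at the read length of 50 bases. Of the 50-base stretches in their annotated transcripts, 0 of Ccl1, Ccl3, Ccl4 and Ccl5, 0.47% of Cxcl9 and 1.97% of Ccl9 also occurred in transcripts of another gene. The shares were 3.59% for Cxcl10, 10.8% for Xcl1 and 16.9% for Cxcl16, all through a gene on the opposite strand (Art3, Gm20743 and Zmynd15). The strand setting of the counting is not given in the sources used here, so reads of those overlaps cannot be assigned to a strand. The GENCODE model of Ccl1 (chromosome 11, 82176657 to 82305690) reaches far beyond the RefSeq model (82176666 to 82179812), so Ccl1 counts may include reads from distant exons. RefSeq extends Ccl4 (83648624 to 83664683) over part of Ccl3 on the opposite strand, which leaves the split between these neighbours uncertain where such reads occur.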

How the data were processed

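RNA was measured in 3 NK and 3 ILC1 samples sorted from tumours. Poly(A) RNA was captured with oligo(dT) beads, primed with random hexamers and read as single ends of 50 bases on a BGISEQ-500 instrument, per the labels' protocols. The authors deposited raw counts per gene symbol. The submitters' processing notes list HISAT2 2.1.0, featureCounts 2.0.1 and GRCm38. Which annotation release, strand setting and rule for reads with several matches were used is not given in the sources used here. Counts include PCR copies, as no molecular identifiers are mentioned.

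Columns were matched to samples by name and groups taken from the sample titles. CPM used TMM-scaled library sizes, and every ± after a mean is an SD over 3 libraries. Cell types were compared in edgeR 4.0.16 (R 4.3.3) by robust quasi-likelihood fits without covariates, after filterByExpr, and p-values were adjusted by Benjamini-Hochberg over 14475 genes (threshold 0.05). SEs and 95% intervals come from the same fit, whose common dispersion was 0.352. The script was tested on simulated data. DESeq2 1.42.0, limma-voom (limma 3.58.1), RLE and upper-quartile factors, other filters, a replicate block, a covariate for sets of like libraries (NK replicate 3 with ILC1 replicates 1 and 2; NK replicates 1 and 2; ILC1 replicate 3 alone) and leaving out each library were alternatives. With the covariate for sets, only NK replicate 3 and ILC1 replicates 1 and 2 bear on the cell-type estimate. Log2 CPM for the similarity search used a prior count of 2 and genes with a mean of at least 5 CPM.

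Named genes were, by rule, the 9 ligands, their 7 receptors, other ligands with at least 10 CPM in a group, up to 3 of the most abundant members of each other list, members past the test and the 3 genes of most similar course. Others (among them Ifng, Gbp2, Gbp4, Ciita, Ifngr2, Adam17, Clec9a, Csf1r, Csf3r, Fcgr1, Mertk, Batf3, Irf4, Zbtb46, Ccr7, Cd68, Itgam, Cd8a, Cd8b1 and Tbx21) were named after their values were seen. A few genes that the rule covers and a promoter motif that was searched are not reported here. Members, lists and library sets were chosen with earlier results of these data known. Exon lengths and positions (1-based) come from GENCODE M21 on GRCm38, in which 53292 of the 55291 symbols were found.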

Additional observations from a re-analysis of the deposited data

How the results depend on the processing

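Counts of genes passing over the whole table moved most. With 11 higher and 1 lower by the edgeR fit of all libraries, 47 higher and 91 lower passed without the low-count filter, 426 and 584 by DESeq2, and 2 lower with a minimum mean of 5 CPM or by limma-voom. With library sets as covariate 17 were lower. With single libraries left out, 0 to 250 were higher and 0 to 199 lower, the upper ends without NK replicate 3. Among the 9 chemokine genes 0 to 1 were higher and 0 to 1 lower with single libraries left out, and 1 was lower without the low-count filter or by DESeq2. Among all chemokine ligands the same 1 gene, Ccl5, was lower in those fits, with 0 to 2 higher and 0 to 1 lower when single libraries were left out. The log2 fold change of Ccl9 was 2.84 with all libraries, -1.46 without ILC1 replicate 3 and up to 3.85 with another library left out (NK replicate 1), -0.49 with library sets as covariate and 0.19 with the replicate block; the cause was not tested. The other 8 genes had the same sign in every alternative run; Ccl1 did not pass the minimum of 5 CPM. The patterns of the 9 genes held the same 3 genes each at folds of 2 and 4 and with plain or RLE-scaled library sizes.

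Replicate numbers run from 1 to 3 in each cell type, and the labels do not say what they mark. Deviations from the group means correlated at -0.363, -0.355 and -0.564 between same-numbered libraries, and no library correlated best with its own number. Libraries of 1 number differ in macrophage and matrix RNA, so these correlations cannot tell whether the numbers pair the samples. With the replicate block 0 genes were higher and 0 lower by edgeR, with 812 and 772 at an unadjusted p under 0.05, and 0 of the 9 chemokine genes passed. The precision is limited by 3 libraries per group that differ in macrophage and matrix RNA. Depth limits only the lowest levels, as 3 counts equal 0.144 to 0.174 CPM, a limit that covers counting error only.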

Other observations

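Of the other chemokine ligand genes, 11 had a mean of at least 10 CPM in NK cells or ILC1s. Of these, 7 stood out in ILC1 replicate 3, against 3.7% of all genes tested. The ILC1 mean includes that library, and Cxcl3, Ccl24, Pf4, Ccl17, Ccl12 and Ccl22 reached 10 CPM only there. The count of 7 was thus partly fixed by the choice of genes. Cxcl2, a neutrophil attractant, was at 2333 CPM there, at 167 CPM or less in ILC1 replicates 1 and 2 and at 10.9 to 163 CPM in NK cells. Cxcl3, a relative of Cxcl2, was at 209.7 CPM there and at 9.52 CPM or less elsewhere, and Ccl6, the neighbour of Ccl9, at 724 CPM and at 87.0 CPM or less elsewhere. Ccl24, an eosinophil attractant, was at 96.3 CPM and at 1.201 CPM or less elsewhere. Platelet factor 4 (Pf4) was at 67.1 CPM, Ccl17, a CCR4 ligand, at 33.6 CPM and Ccl12 at 29.6 CPM in that library, and none of these 3 exceeded 2.44 CPM elsewhere.

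Cxcl1 and the monocyte attractant Ccl2 were low in NK replicates 1 and 2 and high in the other 4 libraries. Cxcl1 was at 358, 405 and 611 CPM in NK replicate 3 and ILC1 replicates 1 and 2, at 255 CPM in ILC1 replicate 3 and at 2.15 and 1.90 CPM in NK replicates 1 and 2. Ccl2 was at 259.5, 259.8, 419 and 479 CPM in the same 4 libraries and at 5.34 and 0.565 CPM in NK replicates 1 and 2. Ccl7 had 54.3, 53.6, 76.4 and 209 CPM against 5.09 and 1.03 CPM. Ccl22 was at 19.2 CPM in ILC1 replicate 3 and at 7.07 CPM or less elsewhere. None of the 11 genes passed edgeR's test with all libraries, where Ccl17 had an unadjusted p of 0.0443, and none was called by limma-voom or, where it gave an adjusted p, by DESeq2. The log2 fold change of Cxcl1 was 1.81 ± 1.91 with all libraries (edgeR adjusted p = 0.681). Without NK replicate 3 it was 7.71 ± 0.55 and passed (edgeR adjusted p = 0.0252, where 1.67% of all genes were called higher). The part of matrix-cell and macrophage RNA in these levels was not tested.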
